A study of Oryza sativa with 12 samples.

Results

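Leaf and root of the parental rice cultivars C bao and Jamaica were compared over 8 of the 12 arrays of the series, namely 4 leaf arrays and 4 root arrays with 2 of each cultivar in each tissue. They are all the arrays whose labels name a parent. The leaves came from plants 4 weeks old and the roots from plants 7 days old in both cultivars. Every difference below is therefore one between older leaf and seedling root, and tissue and age cannot be told apart. The study concerned weakness of the F1 hybrid between these parents, and its 4 hybrid arrays enter only where stated. The labels name no treatment, no engineered allele and no growth condition for any of these groups, and they do not say whether replicates came from separate plants or pools. P-values therefore measure only the spread between these arrays, which may be technical.

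A rice leaf blade is built around chloroplasts, whose photosystems and electron carriers feed the Calvin cycle and whose photorespiratory pathway runs on into peroxisomes and mitochondria. A rice root takes up water, nitrogen, phosphate, silicon and metals through transporters in cells that are sealed by Casparian bands, and it keeps dividing and extending at its tip. Silicon enters the rice root through a known channel and efflux pump pair, Lsi1 and Lsi2, and iron is gathered partly by secreted chelators made from nicotianamine.

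The arrays were Affymetrix rice arrays, read as deposited signal intensities on a linear scale with 57258 probe sets after leaving out the manufacturer's controls. Array medians lay between 50.1 and 56.8 signal units, and arrays of a pair correlated at r = 0.966 for C bao leaf, 0.947 for Jamaica leaf, 0.967 for C bao root and 0.967 for Jamaica root across probe sets. The Jamaica leaf pair was the least alike, with 11450 probe sets over 2-fold apart against 7718 to 8185 in the other pairs. Genes of leaf and root marked the labelled tissues. The summed signal of 32 leaf marker genes (photosystem, light-harvesting, Rubisco and chlorophyll pathway genes) was 221784 to 340246 on leaf arrays and 32310 to 55843 on root arrays. The chlorophyll pathway genes, 22 of the 32, covered breakdown as well as synthesis, and 2 of them were higher in root in the test below. The summed signal of 13 root marker genes was 4165 to 7597 on leaf arrays and 122237 to 133486 on root arrays. Among the 13, IRT1 and a phosphate transporter gene did not pass the test below. The 10 seed storage genes summed to 2120 to 3057 in leaf and 1367 to 4425 in root, and 5 of them in leaf and 3 in root were below the 40th percentile of all signals (31.4 units), which stands here for a dim probe set. The 8 MADS genes matched by name or synonym to a list of floral genes summed to 963 to 1515 in leaf and 2111 to 3576 in root. Through the synonyms, not all of them need be floral.

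Of the 57258 probe sets, 14772 passed an adjusted p of 0.05 for the leaf minus root difference with cultivar as a covariate (25.8%). Leaf was higher in 7334 (12.8%) and root in 7438 (13.0%), so the calls were split almost evenly. The median difference over all probe sets was 0.04 on the log2 scale, and among the calls it was 1.64 for those higher in leaf and -1.38 for those higher in root. All 4 leaf arrays lay above all 4 root arrays for 7672 probe sets (13.4%), and the reverse held for 7494 (13.1%). Differences above 5 on the log2 scale passed the test for 430 probe sets on the leaf side and 263 on the root side. Among 2457 genes with an informative name, 544 were higher in leaf (22.1%) and 767 in root (31.2%), with a median difference of -0.21. The shares of named genes are the ones to read the gene groups against. In bulk tissue, fewer cells of a type and less RNA per cell cannot be told apart, and this touches every difference given here.

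First of the 10 named genes of largest leaf excess was PIP2-7 (LOC4347729), a plasma membrane aquaporin. It read 12869 and 16467 on the C bao leaf arrays and 26058 and 24089 on the Jamaica leaf arrays. The root arrays read 23.5 and 8.8 for C bao, then 5.2 and 3.1 for Jamaica, so root was near the floor of the array in both cultivars and the tissues were far apart. The difference was 9.57 ± 0.30 on the log2(signal + 16) scale (estimate ± SE, adjusted p = 2.2e-07), and the added 16 understates a fold against so dim a tissue: with 1 added it was 11.08 and with 64 added it was 8.02. The Rubisco small subunit gene RBCS (LOC4351966) read 25141 and 31210 in C bao leaf, 41511 and 33602 in Jamaica leaf, 277 and 412 in C bao root and 190 and 199 in Jamaica root. Its probe set carries a suffix that marks possible binding of related transcripts, so the value may include other family members. The same holds for LTP, LTP2-B, Pi21, GDCSH, TIP2-1, PLP2, NRT2.3 and EF-1-alpha, and in all for 31 of the 152 genes given by name. The difference was 6.89 ± 0.25 (adjusted p = 3.9e-07), with no overlap between the tissues.

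GLK2 (LOC4326363), a transcription factor that promotes chloroplast development, read 2936 and 3412 in C bao leaf and 4566 and 3092 in Jamaica leaf, against 2.4 and 6.8 in C bao root and 4.5 and 2.5 in Jamaica root. Every leaf array was far above every root array, and the root values were all below 10 units (difference 7.44 ± 0.22). GDCSH, the H subunit of the glycine decarboxylase of photorespiration, averaged 15492 ± 3925 in leaf and 61.2 ± 51.1 in root (mean ± SD, n = 4 arrays here and below), while its second, dim probe set (46 and 40 units) did not pass. LIR1, a light-regulated chloroplast protein gene, averaged 37642 ± 8018 in leaf and 229 ± 144 in root. The lipid-transfer protein genes LTP (8.65) and LTP2-B (7.56), whose products carry lipids in the epidermis and beyond, the apyrase gene APY3 (7.08), the germin gene GER5 (7.22) and the proline-rich blast-susceptibility gene Pi21 (8.23) completed the set, as log2 differences that all passed the test. Within this set the arrays of a tissue differed by several-fold for some genes: GER5 read 22695 and 6966 in C bao leaf and 2354 and 7826 in Jamaica leaf, all above its highest root value of 53.7.

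**Figure D1:**
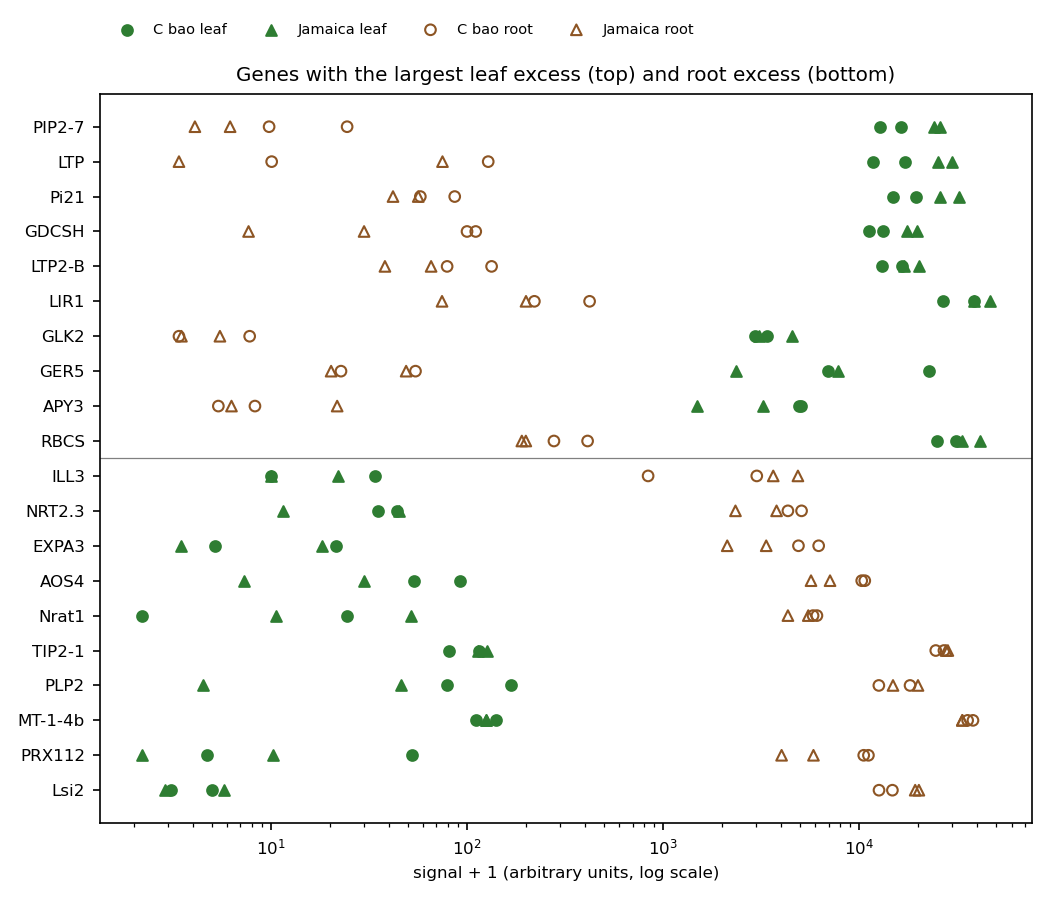
Signal on each of the 8 parental arrays for the 10 named genes of largest leaf excess (upper rows) and the 10 of largest root excess (lower rows); the horizontal axis is signal + 1 on a log scale, filled symbols are leaf, open symbols root, circles C bao and triangles Jamaica. Leaf and root arrays do not overlap for any of the 20, as the rule for choosing them required.

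Among the 10 named genes of largest root excess, Lsi2 (LOC4331328), the efflux pump of silicon uptake, stood first. It read 12656 and 14815 in C bao root and 19356 and 20215 in Jamaica root, against 2.1, 4, 4.8 and 1.9 on the leaf arrays. The leaf values were all at the array's floor, and the difference of -9.75 ± 0.17 (adjusted p = 1.3e-08) became -12.00 with 1 added and -7.94 with 64 added. MT-1-4b (LOC4352582), a metallothionein that binds metals, read 35837 and 38156 in C bao root and 33676 and 33668 in Jamaica root, against 110 to 140 in leaf. Its arrays were the tightest of the 10, at a difference of -7.97 ± 0.12 (adjusted p = 6.4e-09). TIP2-1, a vacuolar aquaporin, averaged 27005 ± 1655 in root and 109 ± 19.6 in leaf. The class III peroxidase gene PRX112 differed by -8.05 on its brighter probe set, but its second was called the other way, at 442 units in leaf and 218 in root (0.97 ± 0.18, adjusted p = 0.0031). The others were the patatin-like gene PLP2 (-7.91), the aluminium transporter gene Nrat1 (-7.37), the jasmonate-pathway cytochrome gene AOS4 (-7.30), the wall-loosening expansin gene EXPA3 (-7.22), the high-affinity nitrate transporter gene NRT2.3 (-6.33) and the auxin-conjugate hydrolase gene ILL3 (-6.32). PIP2-7 and Lsi2 stayed first with 1 or 64 added in place of 16, but the sets did not stay whole: 7 of the 10 leaf genes and 9 of the 10 root genes were again among the 10 with 1 added, and 8 and 8 with 64 added.

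Photosynthesis genes were almost all on the leaf side. Of 14 light-reaction genes, 13 were higher in leaf and 1 in root, with a median difference of 4.34 against -0.21 over all named genes. LFNR1 (LOC4339874), the ferredoxin-NADP reductase that passes electrons to NADPH, read 15949 and 19674 in C bao leaf, 31064 and 27356 in Jamaica leaf, 322 and 305 in C bao root and 117 and 102 in Jamaica root. PSAH, a photosystem I subunit, averaged 28927 ± 11538 in leaf and 771 ± 332 in root. The light-harvesting and plastocyanin genes RCABP69 (5.14), RCABP89 (4.20), CAB2R (3.43) and PETE (3.19) were higher in leaf but not near the floor in root, where PETE read 6026 and 7592 for C bao, and 2164 and 1938 for Jamaica. PSAG, another photosystem I subunit, had the smallest leaf excess (0.69 ± 0.19) with overlapping tissues, and its call was lost without 5 of the 8 arrays in turn (C bao leaf 1 and 2, C bao root 1, Jamaica leaf 1 and Jamaica root 2), at adjusted p of 0.0518 to 0.0733. The single member higher in root was atpB, the gene of a plastid ATP synthase subunit, at 8323 ± 1077 in leaf and 14688 ± 1629 in root.

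Carbon fixation and photorespiration followed the light reactions. Of 7 carbon-fixation genes 6 were higher in leaf and 1 did not pass, and the median difference was 4.88. CFBP1, the plastid fructose-bisphosphatase, averaged 8474 ± 4686 in leaf and 120 ± 87.0 in root. The Rubisco activase gene rca averaged 18888 ± 6195 in leaf, and its root arrays read 1447 and 1357 in C bao but 302 and 209 in Jamaica. The member that did not pass, RBCS-A, was dim in both tissues (27.1 and 18.4 units). Of 6 photorespiration genes 4 were higher in leaf and 2 in root. The glycolate oxidase family was split: GLO1 (6.07) and GLO5 (5.50) were higher in leaf, whereas GLO3 (-3.20) and GLO4 (-1.05) were higher in root. The second probe set of GLO1 did not pass, at 1572 units in leaf and 2024 in root (-0.35, adjusted p = 0.099). GLO3 read 3287 and 2837 in C bao leaf, 129 and 291 in Jamaica leaf and 6849 to 7724 in root, so its distance between tissues differed between cultivars.

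Chlorophyll genes were higher in leaf in 18 of 22 cases, higher in root in 2 and did not pass in 2, with a median of 1.95. CHLH, the large subunit of the magnesium chelatase that opens the chlorophyll branch, averaged 3136 ± 970 in leaf and 193 ± 83.8 in root, and its second, dimmer probe set (132 and 85.0 units) did not pass. The geranylgeranyl reductase gene CHLP (3.75), the protochlorophyllide reductase gene PORB (3.68) and the chelatase subunit gene CHLD (3.65) had like differences. The members higher in root were not of synthesis. SGR, the stay-green protein that takes magnesium out of chlorophyll during breakdown, averaged 1069 ± 697 in leaf and 4307 ± 1228 in root (-2.15 ± 0.39, adjusted p = 0.0028), and the haem oxygenase gene HO1, which opens the phytochrome chromophore branch, averaged 4585 ± 1183 and 9630 ± 2352. Carotenoid and tocopherol genes were higher in leaf in 6 of 10 cases, with none higher in root, led by the phytoene synthase gene PSY1 at 4391 ± 1461 in leaf and 199.6 ± 23.6 in root.

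The plastid's own upkeep followed, with exceptions. Of 11 plastid redox genes 8 were higher in leaf and 2 in root (median 2.58), and of 23 organelle protease and plastid protein translocation genes 17 were higher in leaf and 1 in root (median 2.43). The thioredoxin-like gene cdsp32 averaged 14062 ± 6197 in leaf and 166 ± 75.9 in root, and the intramembrane protease gene EGY1 averaged 6837 ± 1655 and 428 ± 58.2. OsTrxm5 (5.37) and OsTrxm2 (-1.62), both m-type thioredoxin genes, went opposite ways. The plastid isoprenoid pathway showed no single side, with 3 of 8 genes higher in leaf, 2 in root and a median of 0.02. One of the genes higher in leaf is CHLP, which is also counted with the chlorophyll genes above. CLA1, a gene of the first enzyme of that pathway, was higher in leaf (1109 ± 428 against 170 ± 58). ISPE, of a later step, was higher in root (843 ± 325 against 291 ± 108). The sides did not follow the order of steps, since genes of the first step and of later steps were called on both sides. The ribosomal protein list, of which 7 of 23 genes were higher in root (3 to 7 when 1 array was left out, with falls past 1.5-fold without C bao root 1, Jamaica leaf 2 or either Jamaica root array) by small differences (RPS26, the largest, at -0.96), held 2 genes far higher in leaf, RPL18 (3.47) and RPL27 (3.37).

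**Figure D2:**
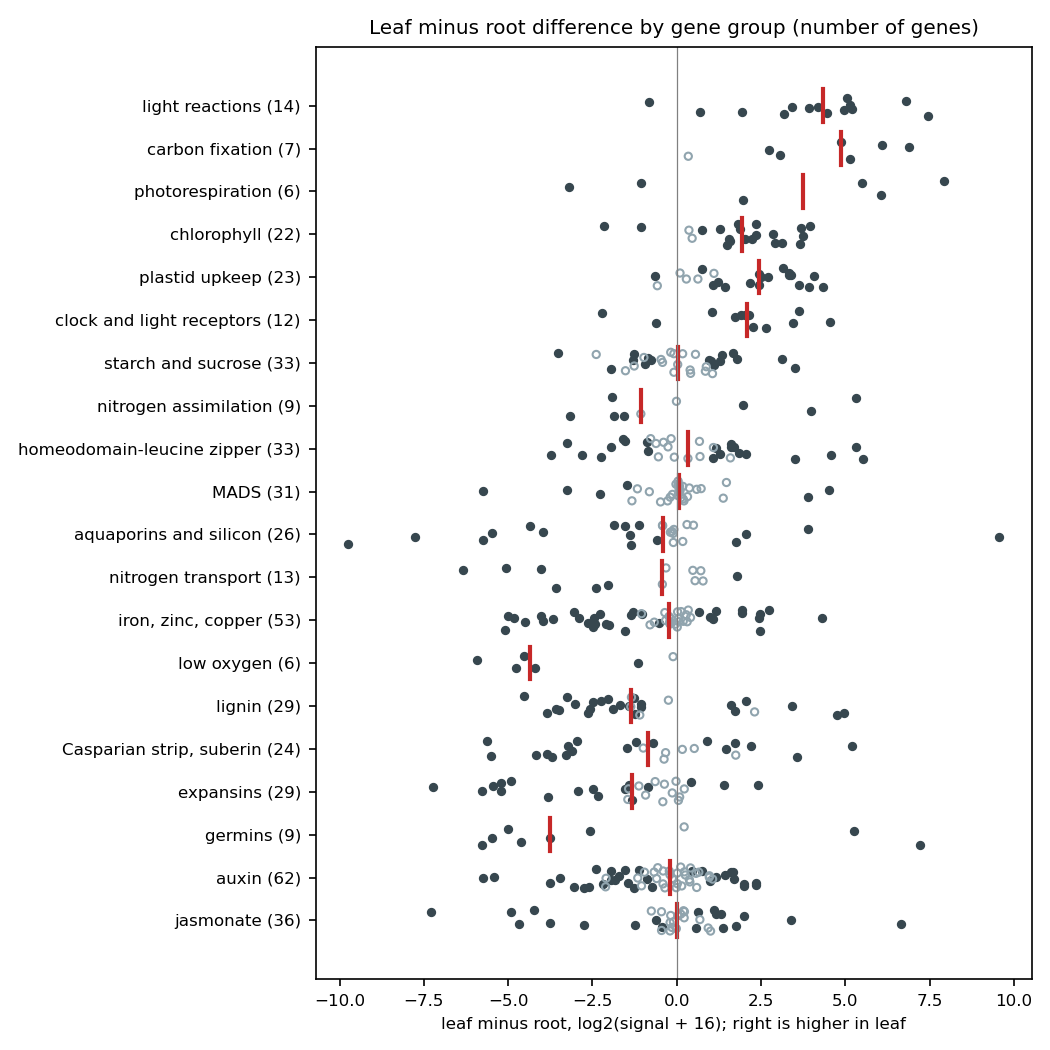
Leaf minus root difference (log2 of signal + 16) of every gene in 20 gene groups, 1 point a gene; filled points passed an adjusted p of 0.05, open points did not, and the bar is the group's median. Photosynthesis groups lie to the right of 0, wall, barrier and anaerobic groups to the left, and most hormone and transcription factor families on both sides.

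Sugar metabolism genes were found on both sides. Of 33 starch and sucrose genes 9 were higher in leaf and 7 in root, with a median of 0.03. AGPS2, a small subunit of the ADP-glucose pyrophosphorylase that commits carbon to starch, averaged 4416 ± 745 in leaf and 378 ± 94.9 in root. The sucrose synthase gene SUS4 averaged 2722 ± 878 and 324 ± 193. On the root side the neutral invertase gene CINV1 read 5360 to 5636 in root and 1205 to 1529 in leaf, and the cell-wall invertase gene CIN2 had a difference of -3.53. Of 18 sugar transporter genes 6 were higher in leaf and 5 in root. SWEET1B averaged 1579 ± 901 in leaf and 4.17 ± 2.98 in root, the sucrose loader SUT1 averaged 1952 ± 332 and 414 ± 183, and SWEET14, a sucrose effluxer, averaged 828 ± 379 and 3106 ± 705. Of the trehalose phosphatase genes 4 of 8 were higher in root (TPP2 at 171 ± 56.9 in leaf and 1725 ± 204 in root) and 1 higher in leaf (TPP7, 1.47).

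Nitrogen assimilation genes were on both sides, with 3 of 9 genes higher in leaf and 4 in root. The plastid glutamine synthetase gene GLN2 read 14745 and 14894 in C bao leaf, 23920 and 20604 in Jamaica leaf and 748 to 1600 in root. The cytosolic gene GLN1-2 read 1986 and 2472 in C bao leaf, 3540 and 3178 in Jamaica leaf and 20035 to 28239 in root. The isoforms thus had opposite tissue orders, at 3.97 ± 0.26 and -3.16 ± 0.19. The glutamate synthases GLT2 (5.31) and GLU (1.96) were higher in leaf, and glutamate dehydrogenase GDH (-1.93) and cytosolic GLN1-1 (-1.86) in root.

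Light receptors and the clock formed a group in which all 12 genes passed the test, 10 of them higher in leaf, with a median of 2.08. PCL1, an evening-complex clock gene, averaged 18173 ± 5319 in leaf and 781 ± 286 in root. The blue-light receptor gene PHOT2 (3.61) and the phytochrome gene phyC (3.46) were higher in leaf. LHY, the morning-phased clock repressor, went the other way and averaged 1139 ± 249 in leaf and 5302 ± 651 in root (-2.22 ± 0.18, adjusted p = 2e-05). The hour at which each tissue was taken is not given in the sources used here.

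Transcription factor families were split by member. In the group of KNOX, YABBY, WOX and GLK genes 8 of 29 were higher in leaf and 4 in root. YAB2, a YABBY gene of lateral organs, averaged 1601 ± 618 in leaf and 3.15 ± 1.38 in root, and YAB1 averaged 2138 ± 1607 and 13.6 ± 9.01. The KNOX gene HOS9 averaged 127 ± 110 in leaf and 2692 ± 553 in root. MADS genes rarely passed, with 2 of 31 higher in leaf and 4 in root, and the 2 were MADS22 (9200 ± 1490 in leaf, 386 ± 74.2 in root) and MADS55 (3.88), close relatives of the SVP group. MADS27, of the ANR1-like group tied to nitrate in roots, read 4000 and 5228 in C bao root, 4564 and 4414 in Jamaica root and 24.5 to 127 in leaf.

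Among homeodomain-leucine zipper genes 12 of 33 were higher in leaf and 9 in root. The epidermal class IV genes Roc2 (5.54), ROC1 (5.32) and Roc6 (4.58) led the leaf side, and hox14 (-3.72) and HOX8 (-3.25) the root side. Of 11 DOF and PCF (TCP class) genes 6 were higher in leaf and 2 in root. PCF7 read 4166 and 3356 in C bao leaf, 413 and 1191 in Jamaica leaf and 5.1 to 69.8 in root. DOF4 averaged 10588 ± 3820 and 2212 ± 706, whereas DOF2 averaged 308 ± 46.1 in leaf and 795 ± 130 in root. LG1, which sets the boundary of blade and sheath in grass leaves, averaged 239.7 ± 112 in leaf and 4.00 ± 1.65 in root.

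Uptake genes were described by substrate, against shares of named genes of 22.1% higher in leaf and 31.2% higher in root. Of 26 aquaporin and silicon transport genes 12 were higher in root and 4 in leaf. Lsi1, the silicon influx channel, read 18389 and 20397 in C bao root and 29080 and 24544 in Jamaica root, against 223 and 302 in C bao leaf and 748 and 564 in Jamaica leaf. Both silicon genes were thus high in every root array, at -5.73 ± 0.20 for Lsi1, and the leaf values of Lsi1 were low but above those of dim probe sets. The plasma membrane aquaporin gene PIP2-5 (-4.36) was higher in root, opposite to PIP2-7.

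Of 13 nitrogen transport genes 6 were higher in root and 1 in leaf. NRT2.3 read 4341 and 5095 in C bao root, 2344 and 3799 in Jamaica root and 10.5 to 44.3 in leaf. The ammonium transporter gene AMT1-2 averaged 80.8 ± 37.3 in leaf and 3431 ± 1875 in root, and NRT2.2 averaged 39.8 ± 27.5 and 852 ± 268. The member higher in leaf was NIA1, nitrate reductase, which is an enzyme and not a carrier (9560 ± 5593 against 2434 ± 454, with a second, dim probe set that did not pass). Phosphate genes were not weighted to either side, with 4 of 20 higher in leaf, 4 in root and a median of -0.05. The root xylem loader PHO1-2 averaged 290 ± 225 in leaf and 9985 ± 2804 in root, though its other probe sets did not pass (234 and 306 units for the brighter), and the uptake transporter that the annotation calls PT1 averaged 57.8 ± 13.4 and 1973 ± 453. The phosphate-sensing gene SPX1 averaged 5236 ± 1191 in leaf and 2126 ± 679 in root.

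Iron, zinc and copper genes were higher in root in 21 of 53 cases and in leaf in 11. Nicotianamine synthase genes were higher in root. NAS1 read 20085 and 22301 in C bao root and 19427 and 20293 in Jamaica root, against 2107 and 750 in C bao leaf and 231 and 314 in Jamaica leaf. NAS2 (-4.51), NAS3 (-5.02) and NAAT1, the next enzyme towards the secreted chelator (-2.45), were higher in root too. The zinc transporter gene ZIP1 averaged 179 ± 56.3 in leaf and 5366 ± 1169 in root. On the leaf side Nramp1, a metal transporter of the NRAMP family, averaged 14378 ± 5583 in leaf and 719 ± 336 in root. IRT1, the ferrous iron transporter that is a common root marker under iron shortage, did not differ past the test (239 ± 79.4 against 224 ± 48.5). Of 28 potassium and sodium transporter genes 7 were higher on each side, among them HAK17 (5.40) in leaf and HAK1 (-1.36) in root. Metallothioneins were higher in root in 5 of 7 cases and in leaf in 0. MT1B read 19851 and 24976 in C bao root but 4800 and 3247 in Jamaica root, and 355 to 3198 in leaf.

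**Figure D3:**
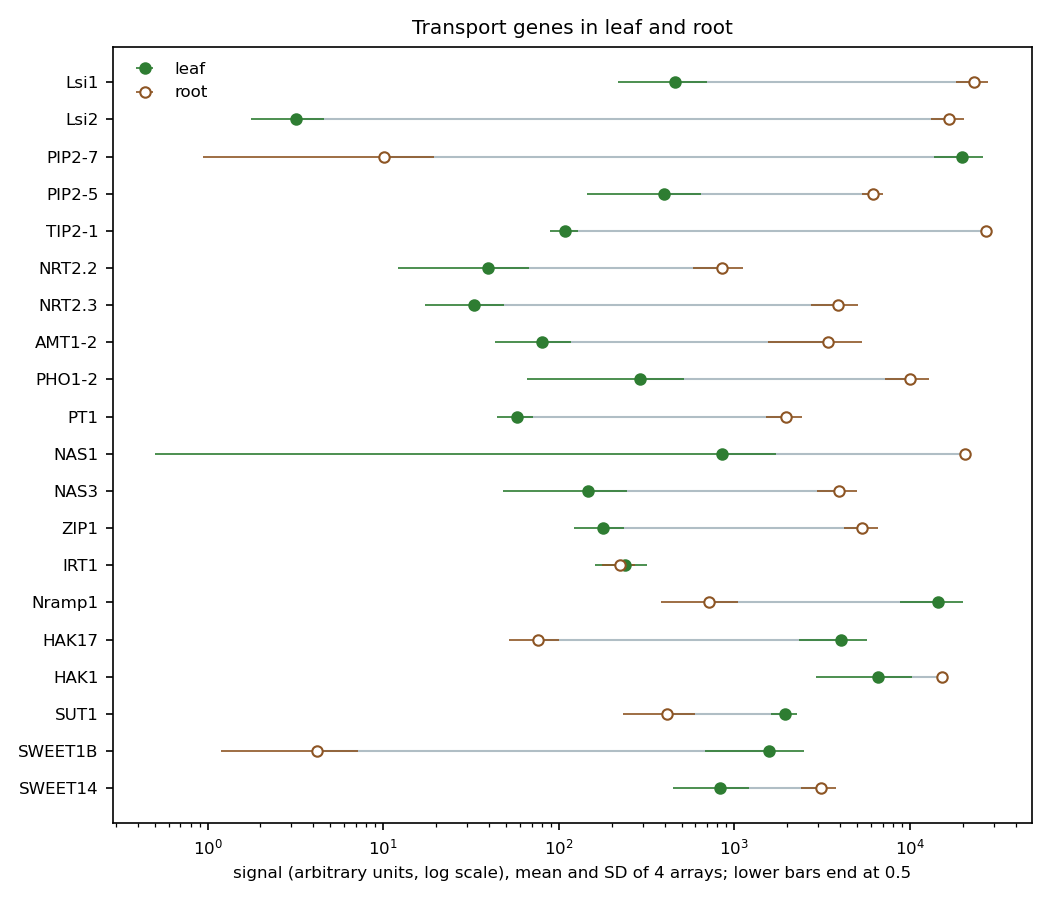
Mean signal in leaf (filled) and root (open) with the SD over 4 arrays for transport genes, by substrate; the axis is signal on a log scale and each line joins the tissues of 1 gene. Of the 20 genes Lsi2, TIP2-1 and NRT2.3 have the widest gap to the root side, PIP2-7 and SWEET1B to the leaf side, and IRT1 has its tissues side by side; bars that would reach below 0.5 units end there.

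Barrier, lignin, expansin and low-oxygen groups held more genes higher in root than in leaf. Of 24 genes of Casparian strip proteins and suberin 12 were higher in root and 6 in leaf. OsCASP1, a scaffold of the Casparian strip, read 2500 and 2559 in C bao root and 1645 and 2085 in Jamaica root, against 4.3, 35.1, 59.6 and 30.5 on the leaf arrays. Its relatives OsCASPL1U3 (-5.51) and OsCASPL1C2 (-4.17) were higher in root too, while OsCASPL2A1 was higher in leaf (5.21). Of 29 lignin genes 18 were higher in root and 6 in leaf. PAL06, phenylalanine ammonia-lyase, averaged 390 ± 264 in leaf and 4566 ± 491 in root, and the cinnamyl alcohol dehydrogenase family was split, with CAD8A at -4.54 and CAD8C at 4.95.

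Of 29 expansin genes 14 were higher in root and 3 in leaf. EXPB7 averaged 325 ± 205 in leaf and 15058 ± 3909 in root, and EXPA3 and EXPA8 (-5.46) were at the floor in leaf. Cellulose synthase and related genes were higher in root in 9 of 29 cases, a share like that over named genes, and in leaf in 3. CESA6, a subunit of the primary-wall synthase, averaged 1299 ± 767 in leaf and 6963 ± 925 in root. Germin genes were higher in root in 6 of 9 cases and in leaf in 2: GER2 averaged 881 ± 888 in leaf and 19200 ± 5512 in root, while GER5 and GER8 (5.26) were higher in leaf. The beta-glucosidase genes had no side, with 8 of 27 higher in leaf, 7 in root, and BGLU5 (5.11) and BGLU34 (-5.80) at the ends. Of 6 low-oxygen genes 5 were higher in root and 0 in leaf. The alcohol dehydrogenase gene Adh2 read 19839 and 23815 in C bao root and 22365 and 20603 in Jamaica root, against 608 and 806 in C bao leaf and 159 and 166 in Jamaica leaf. The haemoglobin gene NSHB1, known as a low-oxygen gene, averaged 241 ± 20.5 in leaf and 7159 ± 1617 in root.

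Each hormone group held genes higher in leaf and genes higher in root. For auxin, 12 of 62 genes were higher in leaf and 19 in root, shares close to those over named genes. PIN2, the efflux carrier of the root tip in Arabidopsis, averaged 12.4 ± 12.7 in leaf and 1451 ± 409 in root, and GH3.2, an auxin-conjugating enzyme gene, averaged 123 ± 82.9 and 5362 ± 991. ARF15, an auxin response factor gene, averaged 4223 ± 853 in leaf and 809 ± 138 in root. For cytokinin, 6 of 31 genes were higher in leaf and 10 in root, the latter 5 to 11 when 1 array was left out, with falls past 1.5-fold without any array but the Jamaica leaf pair. Of the cytokinin-activating enzyme genes LOGL9 was higher in leaf (1638 ± 392 against 223 ± 98.6) and LOGL1 in root (1364 ± 922 against 4116 ± 745).

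Gibberellin genes were higher in leaf in 6 of 13 cases and in root in 2. The early synthesis genes KS1A (709 ± 48.5 in leaf, 85.7 ± 24.7 in root) and CPS1 (2.70) were on the leaf side, while CYP714D1, an enzyme that inactivates gibberellins, averaged 138 ± 15.6 in leaf and 1397 ± 473 in root. In the brassinosteroid and strigolactone group 4 of 15 were higher on each side, with the receptor-like gene BRL1 at 35.3 ± 13.5 in leaf and 970 ± 165 in root. Jasmonate genes were higher in leaf in 10 of 36 cases and in root in 9. The lipoxygenase gene LOX2.1 averaged 5109 ± 3526 in leaf and 32 ± 24.3 in root, whereas AOS4 (-7.30) and the oxophytodienoate reductase gene OPR1 (-4.92) were higher in root. For ethylene, 4 of 18 genes were higher on each side, and ACO1, the enzyme that forms ethylene, read 6653 and 6014 in C bao leaf, 849 and 2195 in Jamaica leaf and 6.5 to 24.4 in root. Of 24 abscisic acid and dehydration genes 7 were higher in leaf and 6 in root. The kinase gene SAPK9 averaged 7406 ± 2292 in leaf and 972 ± 140 in root, and the dehydrin gene RAB16D read 1176 and 735 in C bao root, 144 and 194 in Jamaica root and 5.6 to 29 in leaf.

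Stress and signalling families were mixed as well. All 17 genes of peroxide and superoxide handling passed the test, 8 higher in leaf and 9 in root. The plastid ascorbate peroxidase gene APX8 averaged 15060 ± 4868 in leaf and 134 ± 48.1 in root, and the cytosolic APX1 averaged 4857 ± 2788 in leaf and 19446 ± 1153 in root. CAT-A, a catalase gene, was higher in leaf (2.03). Glutaredoxin genes were higher in leaf in 5 of 18 cases and in root in 8, with GRXC1 (5.99) and GRXS2 (-3.98) at the ends. Of 17 chitinase and other defence genes 7 were higher in leaf and 2 in root, and Cht4 averaged 2129 ± 939 in leaf and 8.80 ± 5.40 in root. Of 44 heat shock genes 8 were higher on each side, a share below that over named genes in each direction. Of 28 DREB and bZIP genes 5 were higher in leaf and 11 in root, the latter led by TGAL4 (34.5 ± 34.1 against 2018 ± 78.1). Among calcium sensor kinases of the CIPK and CBL group 9 of 31 were higher in leaf and 11 in root. CIPK7 averaged 7581 ± 2044 in leaf and 591 ± 50.2 in root, and CIPK23, which activates nitrate and potassium uptake in Arabidopsis, averaged 2340 ± 739 in leaf and 15249 ± 1616 in root. Its second probe set was level between the tissues, at 1895 and 1837 units (0.02 ± 0.14, adjusted p = 0.94).

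Other families gave these counts. Of 8 flowering-time genes 3 were higher in leaf and 0 in root, and of 23 growth-regulating and SPL factor genes 5 were higher in leaf and 3 in root. Of 17 endoglucanase and mannanase genes 0 were higher in leaf and 4 in root. WRKY and NAC genes were higher in leaf in 3 of 14 cases and in root in 4. Calcium-dependent kinase and calmodulin-like genes were higher in leaf in 7 of 43 cases and in root in 14, and type 2C phosphatase genes in 16 and 11 of 55. Of 5 histone H2B genes 3 were higher in root and 0 in leaf, and of the 10 seed storage genes 1 was higher in root and 0 in leaf.

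Diterpenoid defence genes were higher in root in 5 of 17 cases (9 without C bao root 1) and in leaf in 2. The root share was like the 31.2% over named genes. The median difference of the list was -0.21 in C bao and -2.93 in Jamaica. CPS4, the first enzyme of the momilactone cluster, read 326 and 875 in C bao root, 5887 and 2416 in Jamaica root and 4.9 to 52 in leaf. Its cluster neighbour CYP99A3 read 1394 and 3202 in C bao root, 9443 and 2245 in Jamaica root and 49.6 to 218 in leaf. Replicate root arrays differed by over 2-fold for both genes in each cultivar, but no leaf array reached any root array.

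Genes often used as steady references were not all level. Of 23 actin, tubulin, GAPDH, ubiquitin and translation genes 0 were higher in leaf and 11 were higher in root, with a median of -0.79. By cultivar the median was -0.33 in C bao and -1.23 in Jamaica, against -0.07 and -0.29 over all named genes. The 11 became 7 without Jamaica leaf 2 or Jamaica root 1, and over all probe sets 7334 were higher in leaf. EF-1-alpha averaged 24854 ± 2279 in leaf and 24043 ± 422 in root (0.04 ± 0.11, adjusted p = 0.83). The glycolytic gene GAPC differed by -0.13 and UBQ1 by -0.23, neither past the test. GAPC3 (7140 ± 1748 in leaf, 27987 ± 1813 in root) and the beta-tubulin gene TUBB8 (2058 ± 1846 in leaf, 8942 ± 1304 in root) were higher in root. The tubulins were low mostly in Jamaica leaf: TUBB8 read 4573 and 2244 in C bao leaf and 382 and 1032 in Jamaica leaf. The reference list as a whole was lowest there too. Its mean log2 level was 11.69 and 12.09 in Jamaica leaf, 12.78 and 12.85 in C bao leaf and 13.21 to 13.32 in root. The reference list's median stayed below 0 under both other scalings of the arrays.

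Genes of dividing cells separated the leaf groups. The mean log2 level of 69 cell cycle and replication genes was 9.31 and 9.42 on the C bao leaf arrays and 8.0 and 8.28 on the Jamaica leaf arrays, against 9.19 to 9.53 on the root arrays. Only the Jamaica leaf arrays thus lay below the root arrays for this list. The median leaf minus root difference of these genes was 0.04 in C bao and -0.90 in Jamaica. For 32 kinesin genes, a motor family that includes but is not limited to the motors of spindle and cell plate, it was 0.48 in C bao and -2.30 in Jamaica. Over both cultivars 20 of the 69 were higher in root and 11 in leaf, and the 20 ranged from 10 to 24 when 1 array was left out, with the falls past 1.5-fold coming without any of the 4 Jamaica arrays. PCNA, the sliding clamp of replication, read 954 and 1632 in C bao leaf, 589 and 595 in Jamaica leaf and 2312 to 3432 in root, so root was higher in both. The median difference of expansin genes was -0.51 in C bao and -2.43 in Jamaica, and that of cellulose synthase genes was -0.16 and -1.61. The part of dividing cells in these values was not tested.

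**Figure D4:**
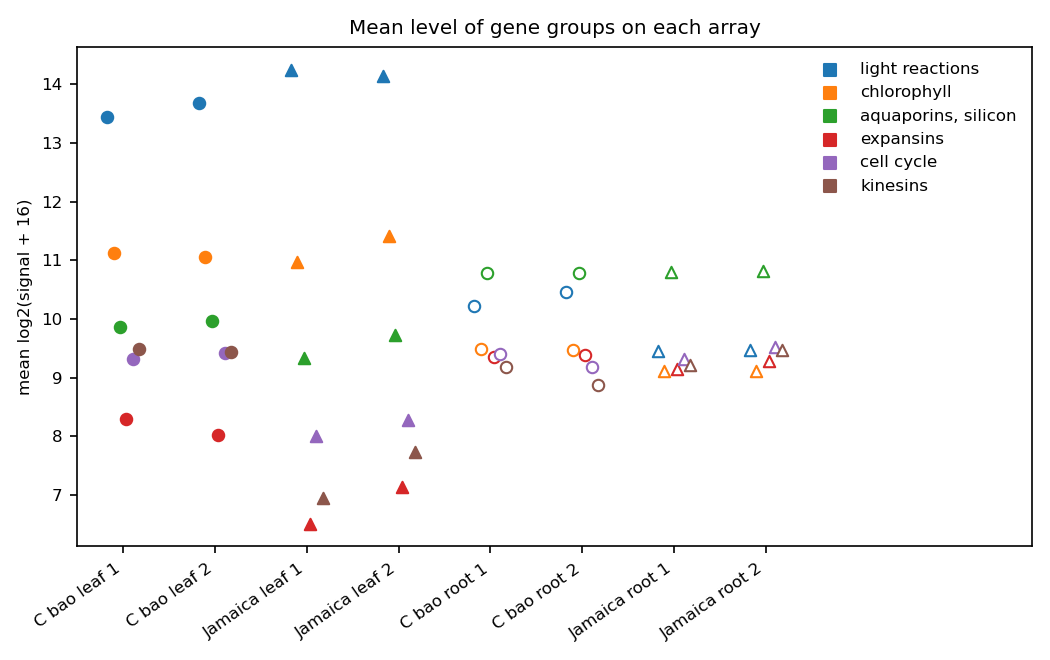
Mean log2(signal + 16) of the genes of 6 groups on each of the 8 arrays; colours are groups, filled symbols are leaf, open symbols root, circles C bao and triangles Jamaica. Light-reaction genes separate the tissues in both cultivars, while cell cycle and kinesin genes are low on the Jamaica leaf arrays alone.

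Each cultivar was also tested by itself. C bao gave 12934 probe sets that passed (22.6%), falling to 8536 without C bao root 2, and Jamaica gave 15101 (26.4%). Of these 8733 passed in each cultivar in the same direction as well as in both together. In 262 probe sets both cultivars passed in opposite directions. The cultivar by tissue interaction, which tests whether the distance between leaf and root differed, passed for 2989 probe sets (5.22%), and for 324 of the 2457 named genes (13.2%), in 9.08% with the larger leaf minus root value in C bao and in 4.11% with the larger one in Jamaica. This count rests on few arrays: it was 929 to 1530 of the probe sets without any 1 of C bao leaf 1, C bao leaf 2, C bao root 1, C bao root 2, Jamaica root 1 and Jamaica root 2, and 2612 and 4228 without Jamaica leaf 1 and Jamaica leaf 2. Light-reaction genes passed it in 9 of 14 cases (7 to 9 when 1 array was left out) and carbon-fixation genes in 3 of 7 (2 to 4), with larger distances in Jamaica: the median difference of light-reaction genes was 3.39 in C bao and 5.28 in Jamaica. The cultivars lay apart in both tissues, since the mean log2 level of these genes was 13.44 and 13.68 in C bao leaf, 14.25 and 14.14 in Jamaica leaf, 10.22 and 10.46 in C bao root and 9.45 and 9.47 in Jamaica root. Kinesin genes passed it in 16 of 32 cases, and in 7 to 23 when 1 array was left out, with falls past 1.5-fold without C bao leaf 1, C bao root 2 or Jamaica root 2. Expansin genes passed it in 7 of 29 cases (3 to 10 when 1 array was left out) and cellulose synthase genes in 3 of 29 (0 to 14), the latter below the share over named genes. Single arrays that moved these counts past 1.5-fold were C bao leaf 1, both C bao root arrays and both Jamaica root arrays for expansins, and every array but Jamaica leaf 1 for cellulose synthases. Among named genes the largest interaction in each direction was that of DTC1, a diterpene cyclase gene (1276 and 1925 in C bao leaf, 5.7 and 7 in Jamaica leaf, 27.8 and 102 in C bao root, 1026 and 414 in Jamaica root), and of the ammonium transporter gene AMT3-3 (112 and 64 in C bao leaf, 3025 and 1447 in Jamaica leaf, 380 and 364 in C bao root, 172 and 204 in Jamaica root). Both genes had opposite tissue orders in the cultivars, and their pooled differences of -0.22 and 0.72 did not pass. A second, dimmer probe set of DTC1 (94.2 units in leaf, 16.9 in root) passed as higher in leaf (adjusted p = 0.027) and did not pass the interaction (1.39, adjusted p = 0.35).

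**Figure D5:**
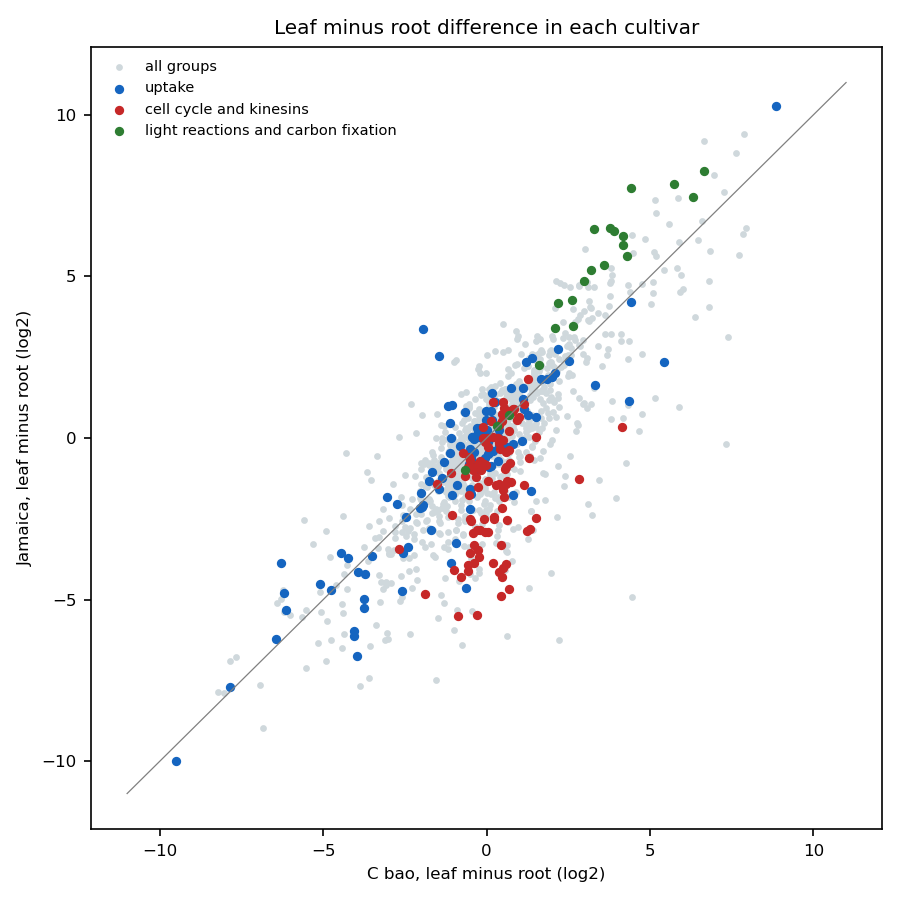
Leaf minus root difference (log2 of signal + 16) in C bao (horizontal) against Jamaica (vertical) for the genes of all groups, 1 point a gene, with light-reaction and carbon-fixation genes, cell cycle and kinesin genes, and uptake genes in colour; the diagonal marks equal differences. Most photosynthesis genes lie above the diagonal, most cell cycle and kinesin genes below it, and uptake genes on both sides of it.

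The hybrid arrays, which share no array with the parents, gave the same sign for 94.5% of the 14772 parental calls, and for 60.6% of the probe sets that were not called.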

How the data were processed

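Signal intensities of 12 Affymetrix rice arrays were used as the authors deposited them, on a linear scale from MAS5, per the submitters' processing notes. The deposited intensity columns had 2% trimmed means of 500.06 to 500.08, so each array was already scaled to a common mean, and a difference is relative to its array. Such scaling cannot show a change in total RNA. Of 57381 probe sets 123 controls were left out. The platform annotation gave 1 gene for 22436 probe sets, several for 95 and none for 34727. Of the 17905 genes 2457 had an informative name, matched through RefSeq gene IDs. The probe set of highest mean over the 8 parental arrays stood for a gene, and of 3444 genes with several probe sets 35 had calls in both directions.

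The test was limma 3.58.1 in R 4.3.3 (lmFit, eBayes with trend) on log2(signal + 16), with cultivar as a covariate and Benjamini-Hochberg adjustment over all 57258 probe sets at 0.05; each cultivar and the interaction came from group means of the same 8 arrays. Genes to name were drawn by rule: the 10 largest called differences each way without overlap between tissues, up to 3 called genes each way in a list, the 4 largest interactions each way, tissue markers and reference genes. The rule gave 407 genes. The 152 given by name are a further choice among them, for which no rule was set. The comparison, the 56 lists (1272 genes) and the rule were chosen with earlier results of these data known, and list patterns were edited once the annotation was at hand. Scaling, added constant, filters on dim probe sets, model terms, thresholds and leaving out each array were tried as alternatives. Python 3.11.15, pandas 2.3.3 and matplotlib 3.10.9 made tables and figures.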

Additional observations from a re-analysis of the deposited data

Results flagged for a closer look

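For 36 of the 152 genes given by name, the leaf minus root difference itself differed between the cultivars in limma's interaction test (adjusted p below 0.05 over all probe sets). Over all 2457 named genes 324 passed (13.2%), 223 with the larger leaf minus root value in C bao and 101 in Jamaica. The 152 were chosen for this text, some by their large interaction, so neither the count of 36 nor its split by direction describes named genes at large. The values below are the difference in C bao minus that in Jamaica on the log2(signal + 16) scale, so that a negative value means a higher leaf level relative to root in Jamaica. In 13 of the 36 the call held without any 1 of the 8 arrays, and in 23 it was lost without at least 1. The sign did not change in any of these fits. Of the 13, the call also held under every other setting for AMT3-3, rca, RCABP69, cdsp32, LFNR1, GLO3 and DTC1. It was lost for PSAH and PETE when tested against a fold of 2, for RCABP89 and Adh2 there and with all 12 arrays, for OsTrxm5 there and without the mean-variance trend, and for CAD8A with all 12 arrays.

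Photosynthesis, photorespiration and plastid genes made up most of the 23 negative values. Rubisco activase rca stood at -3.20 ± 0.26, RCABP69 at -2.52 ± 0.29, cdsp32 at -2.23 ± 0.24, LFNR1 at -2.11 ± 0.22, PSAH at -2.09 ± 0.27, RCABP89 at -2.02 ± 0.27, PETE at -2.01 ± 0.25 and OsTrxm5 at -1.85 ± 0.25, all of which held without any 1 array. CFBP1 (-3.30), GDCSH (-2.53), CHLP (-1.88), GLO1 (-1.77), CHLH (-1.76), CAB2R (-1.67), APX8 (-1.57) and GLO4 (-1.26) went the same way but each lost the call without at least 1 array. A second, dimmer probe set of CHLH passed in the opposite direction (2.98, adjusted p = 0.03). Those of GLO1 (-0.23), GLN2 (-0.78) and GDCSH (-2.40) did not pass. Of the remaining negative values, that of the ammonium transporter AMT3-3 was -5.32 ± 0.52 and held throughout. The values of AMT1-2 (-2.41), DOF4 (-1.49), PCL1 (-1.44), the plastid glutamine synthetase gene GLN2 (-1.37), LOGL1 (-1.36) and PHOT2 (-0.90) did not hold throughout.

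The other 13 values were positive. DTC1 at 9.37 ± 0.78, GLO3 at 3.77 ± 0.42, CAD8A at 2.97 ± 0.25 and Adh2 at 1.99 ± 0.24 held without any 1 array. GER8 (4.28), CIN2 (4.11), CPS4 (3.85), PHO1-2 (2.77), HOS9 (2.42), OsTrxm2 (1.92), CAT-A (1.60), APX1 (1.56) and NAS2 (1.49) lost the call without at least 1 array. Second probe sets of DTC1 (1.39), GER8 (2.38 and 2.25) and PHO1-2 (-0.39 and 1.68) did not pass.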

How the results depend on the processing

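Over 21 alternatives other than stricter thresholds, 143 of the 145 called genes given by name kept their call and no such gene changed sign. The exceptions were PSAG, lost under quantile scaling (adjusted p = 0.0717), without the cultivar term (0.269) and without 5 arrays, and OsTrxm2, lost without the cultivar term (0.0632). UBQ1 was called under 1 alternative. The 152 genes given by name are a choice among 407 that the rule gave, so these counts describe the printed genes only. Others of the 407 kept their call under all 21 alternatives too, but some did not. A replication gene lost its call under 12 of the 21, and a WRKY factor gene under 11. At an adjusted p below 0.01, 142 of the 145 passed, and against a fold of 2, 126 did. Of 61 further probe sets of 44 called genes, 42 were called the same way, 1 the other way (PRX112) and 18 not. Against the 7334 probe sets higher in leaf and 7438 higher in root, quantile scaling gave 6694 and 8026 and median centring 6621 and 8269, so the leaf share of calls went from 49.65% to 45.48% and 44.47%. Testing against a fold of 2 gave 2786 and 2061, with 4430 in C bao, 5948 in Jamaica and 581 for the interaction. An adjusted p below 0.01 left 8452 in C bao and 971 for the interaction. The interaction count was 968 with all 12 arrays in the fit and 1482 without the mean-variance trend. Leaving out 1 array gave 6082 to 6916 higher in leaf, 6133 to 6878 higher in root, 8536 to 14228 in C bao, 10686 to 14162 in Jamaica and 929 to 4228 for the interaction. These fits have fewer arrays, and the cause of the other shifts was not tested.

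Of 56 gene groups, 22 had a median above 0, with 17 to 24 over the alternatives, and the median kept its sign throughout in 40. In the other 16 it changed sign under at least 1 alternative: plastid isoprenoids, starch and sucrose, sugar transport, MADS, homeodomain-leucine zipper, growth-regulating factors, nitrogen assimilation, phosphate, brassinosteroid and strigolactone, abscisic acid, jasmonate, ethylene, heat shock, glutaredoxins, type 2C phosphatases and seed storage. Of the 112 counts by group and direction, 22 moved by over 1.5-fold without at least 1 array; beside those given with their values, these were counts of 5 genes or fewer.

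Same-numbered replicates did not deviate together (r of -0.128 to 0.007 over 6 pairs of groups), so the values showed no sign of a pairing. This cannot exclude that same-numbered samples were grown or handled together, which the labels do not say. With the replicate number as a block the counts were 6573 higher in leaf, 6666 higher in root, 11742 in C bao, 13853 in Jamaica and 2136 for the interaction.

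The number of arrays, 2 a cultivar and tissue, limits the precision. No detection calls were used, so a probe set near the floor has no measured limit. For 29 of the 152 genes 1 tissue lay below the 40th percentile of signals, and their differences depend on the added 16.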
